A study of Homo sapiens with 6 samples.

Results

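Tumour necrosis factor (TNF), interleukin 6 and the parts of their receptors and signalling chain were followed at the level of messenger RNA in HaCaT cells, an immortalised line of human keratinocytes. The 10 genes were taken by name: the ligands TNF, IL6 and LIF, the receptor chains TNFRSF1A, TNFRSF1B, IL6R, IL6ST and LIFR, and the signalling genes STAT3 and SOCS3. All 10 were found through their Ensembl identifiers among the 19493 genes with a value. Every culture carried a CPD photolyase taken from Potorous tridactylus, a marsupial; the enzyme uses visible light to split cyclobutane pyrimidine dimers, the main lesion that short-wave ultraviolet light (UVC) leaves in DNA. In the control group the cells were not irradiated and the photolyase was inactive. In the UVC group the cells received 15 J/m2 at 254 nm, the photolyase stayed inactive, and the cells were harvested 6 h later. The group with active photolyase received the same irradiation, was also exposed to white light for 2 h, and was likewise harvested 6 h after UVC. By the labels, no unirradiated group had white light, so the light itself and the repair of dimers cannot be told apart. Each group had 2 libraries, and the labels do not say that these came from separate cultures. The p-values are set against the variation among the libraries alone, and that variation may be purely technical.

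TNF is made as a membrane protein that the protease ADAM17 releases, and it acts on the receptors TNFR1 (TNFRSF1A, on most cells) and TNFR2 (TNFRSF1B, chiefly on immune and endothelial cells) to switch on NF-kB or cell death. Interleukin 6 binds its receptor IL6R, and the pair then recruits gp130 (IL6ST), the signalling chain it shares with leukaemia inhibitory factor (LIF), whose own receptor chain is LIFR. Both routes pass through JAK kinases to the transcription factor STAT3, which induces SOCS3, an inhibitor of the same receptor. Keratinocytes are a known source of TNF and interleukin 6 in sunburnt skin.

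The libraries held 57669389 to 70005705 counted reads, and the cells expressed the keratinocyte genes: all 9 markers listed, among them KRT5 and KRT14, passed the filter. Levels are given as cRPKM, read counts corrected for the mappable length of the gene and the depth of the library, divided by each library's TMM factor (0.884 to 0.886 in control, 1.18 in both UVC libraries and 0.954 to 0.957 with active photolyase). Every change is thus relative to the bulk of transcripts, and a change of total RNA per cell would not be seen. The summed level of the keratinocyte markers was 31100 to 32100 in control, 17900 to 18300 after UVC, against 29800 under active photolyase. KRT17, KRT14 and KRT6A made up most of this sum, and the markers did not move as one after UVC: the log2 change was 0.32 for KRT5 and -2.94 for DSG3. Of 10 markers of macrophages, T and B cells, 3 passed the filter, with summed levels of 53.8 to 56.7, 50.6 to 54 and 82 to 82.7 in the same order. Nearly all of that sum was CD68, a lysosomal protein gene (51.2, 48.7 and 79.4). CD3E (1.93, 0.626 and 0.869) and CD14 (1.55, 1.98 and 1.26) did not follow it. The B cell marker MS4A1 was at 0 in every library. The part of these markers in the results was not tested. In averages over a whole culture, fewer cells making a transcript and less transcript per cell cannot be told apart.

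After UVC the ligands TNF and IL6 and the inhibitor SOCS3 rose, and the receptor chains TNFRSF1A, IL6R and IL6ST fell. With active photolyase each of these 6 genes lay on the control side of its UVC level, and IL6R lay above control. LIF and STAT3 were lowest with active photolyase. TNFRSF1B and LIFR stayed under 1 cRPKM in every library and so did not enter the test.

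**Figure D1:**
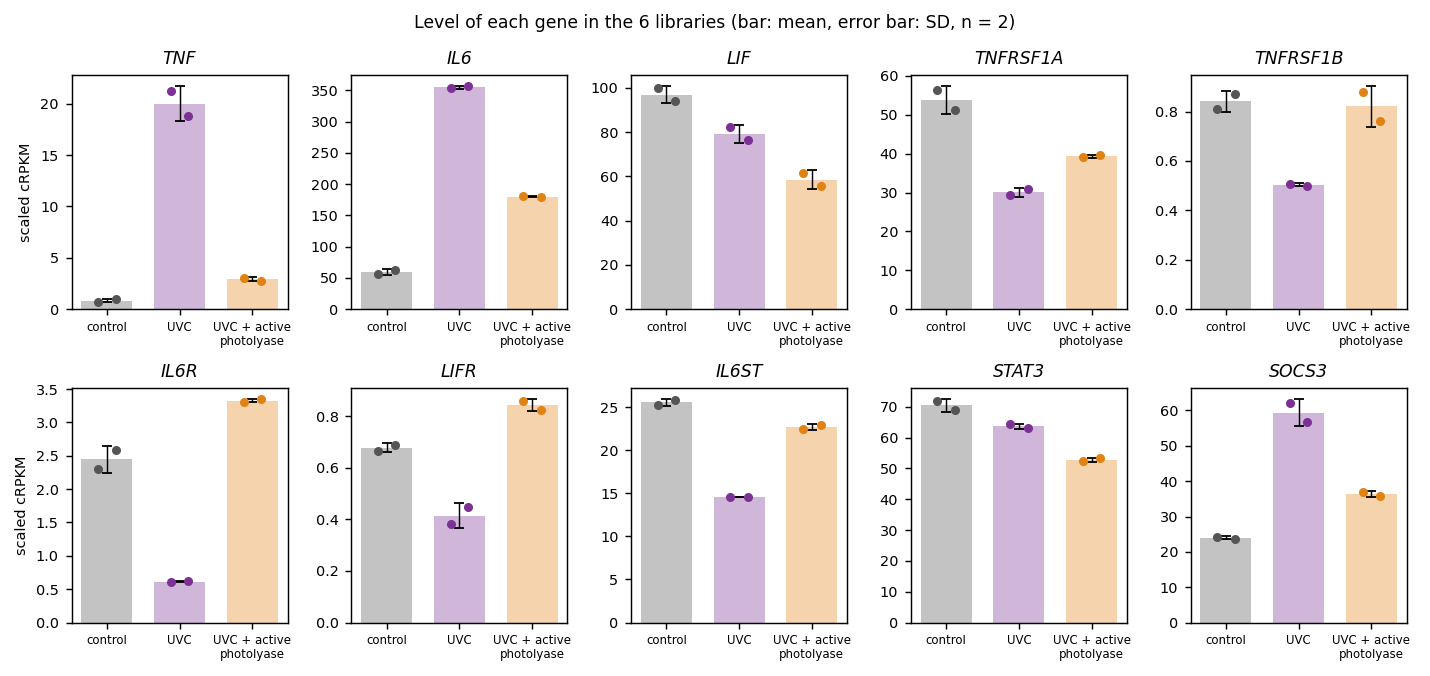
Level of each of the 10 genes (vertical axis, cRPKM divided by the TMM factor, 1 panel and scale per gene) in the control, UVC and UVC with active photolyase libraries. Each point is 1 library, the bar is the mean of 2 and the error bar is the SD. TNF, IL6 and SOCS3 are highest after UVC, while the receptor genes TNFRSF1A, IL6R and IL6ST are lowest there.

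TNF, the founding cytokine of its family, was scarce in unirradiated cells. Its level was 0.733 and 0.961 in the control libraries (74 and 96 reads), 21.2 and 18.8 after UVC (2385 and 2084 reads), against 3.07 and 2.77 under active photolyase (333 and 289 reads). Both UVC libraries were far above the rest, both active photolyase libraries were above both controls, and no groups overlapped. TNF rose 23.7-fold after UVC (log2 fold change 4.56 ± 0.12 SE, adjusted p = 4.07e-13). With active photolyase it was 6.86-fold lower than after UVC alone (-2.78 ± 0.098, adjusted p = 1.2e-11), and still 3.45-fold above control (1.79 ± 0.14, adjusted p = 2.08e-07). These and all adjusted p-values below come from edgeR's quasi-likelihood test with Benjamini-Hochberg adjustment over all genes tested. The log2 change of TNF was above that of 99.9% of the tested genes after UVC. In the deposited cRPKM, however, TNF was under 1 in both control libraries (0.65 and 0.85). It thus passed the filter of 1 cRPKM only through the irradiated groups, where it was higher. In a fit with no filter its change after UVC was 4.47 ± 0.12 (adjusted p = 5.1e-15). Limma on log2(cRPKM + 1) understates the change of a low gene and also leaves out the TMM factor. With it TNF differed by 3.82 after UVC and by 1.12 between active photolyase and control. Library totals in the edgeR fit gave 4.98 after UVC. In control cells only 5.55% of the tested genes had a lower level.

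IL6, a cytokine of fever and the acute phase response, started from a high level. It measured 56.2 and 62.9 in control, 353 and 357 after UVC, against 181 and 180 under active photolyase. The 3 groups lay well apart, with active photolyase between control and UVC. IL6 rose 5.97-fold after UVC (log2 2.58 ± 0.061, adjusted p = 1.55e-13). With active photolyase it was 1.97-fold lower than after UVC alone (-0.98 ± 0.057, adjusted p = 2.47e-09) and 3.03-fold above control (1.6 ± 0.059, adjusted p = 3.42e-10). The level of IL6 was thus the highest of the 10 genes in both irradiated groups, whereas LIF was the highest in control.

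LIF, which keeps stem cells undifferentiated and acts through LIFR and gp130, did not follow the other ligands. It measured 99.9 and 94.2 in control, 82.2 and 76.3 after UVC, against 61.7 and 55.6 under active photolyase. It fell by 0.29 on the log2 scale after UVC (SE 0.063, adjusted p = 0.000656) and was lower again with active photolyase than after UVC alone (-0.44 ± 0.063, adjusted p = 2.46e-05). Against control the cells with active photolyase had 1.65-fold less (-0.73 ± 0.063, adjusted p = 4.28e-07). The direction after UVC depends on the scaling: in the deposited cRPKM, LIF read 88.5 and 83.3 in control and 97.2 and 90.2 after UVC, and with library totals as the scale the change was 0.13 (adjusted p = 0.0689).

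The promoters of TNF and IL6 are shown because these ligands moved most. They are the 250 bases before the transcription start from RefSeq (GRCh38.p14), TNF at chr6:31575315-31575564 and IL6 at chr7:22726950-22727199, both on the plus strand, with motif matches in capitals.
TNF: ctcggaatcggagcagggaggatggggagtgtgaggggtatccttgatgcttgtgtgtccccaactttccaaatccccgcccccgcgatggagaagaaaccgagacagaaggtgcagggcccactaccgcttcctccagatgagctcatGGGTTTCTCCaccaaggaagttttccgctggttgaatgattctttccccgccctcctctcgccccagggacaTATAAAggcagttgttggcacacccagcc
IL6: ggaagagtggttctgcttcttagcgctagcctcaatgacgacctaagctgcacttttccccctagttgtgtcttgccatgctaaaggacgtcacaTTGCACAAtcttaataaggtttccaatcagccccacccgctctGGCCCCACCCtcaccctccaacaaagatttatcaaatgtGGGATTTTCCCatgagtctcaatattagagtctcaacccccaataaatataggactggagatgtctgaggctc
The motifs searched on both strands were a wide NF-kB motif (GGG, then 5 bases of any kind, then CC), a narrower one (GGG, 2 bases of any kind, TTT, then CC), TGANTCA for AP-1, TTCNNNGAA for STAT factors, TTGCNNAA for C/EBP and TATAAA. The narrower NF-kB form lies inside the wider one. Counted over 35116 promoter windows of the same length, these were present in 54.4%, 1.73%, 6.57%, 6.57%, 9.05% and 10.7%. The TNF window held the wide NF-kB motif 101 bases and TATAAA 29 bases before the start. The IL6 window held the narrow NF-kB motif 73 bases and the C/EBP motif 155 bases before the start, with wide matches also at 112 and 72 bases. Of the 10 genes, 9 had a window in the table, 12 windows in all, and only the IL6 window held the narrow NF-kB motif.

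The 3′ UTRs of several of these genes carry ATTTA pentamers, the core of AU-rich elements that shorten the life of many cytokine mRNAs. The densest 30 bases of each are shown for the ligands and SOCS3, in the sense strand of GENCODE 29 (GRCh38), with pentamers in capitals. They lie at chr6:31577999-31578028 (TNF), chr7:22731697-22731726 (IL6), chr22:30240522-30240551 (LIF, minus strand) and chr17:78356838-78356867 (SOCS3, minus strand).
TNF: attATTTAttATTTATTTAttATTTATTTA
IL6: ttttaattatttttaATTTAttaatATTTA
LIF: ATTTAttcaatgtcatATTTAaaatATTTA
SOCS3: caagtcaaactttgcacatATTTAtATTTA
TNF had 9 pentamers in 799 bases of 3′ UTR, denser than in 99.1% of the tested genes, and IL6 had 6 in 429 bases, denser than in 99.5%. LIF had 7 in 3204 bases (60.4%) and SOCS3 had 4 in 1640 bases (64.6%). Among the receptor genes, LIFR had 29 and IL6ST had 23, in UTRs of 6632 and 5987 bases, while TNFRSF1A and TNFRSF1B had none. The longer nonamer TTATTTATT was present in TNF, LIF and LIFR, and in 8.25% of the 11441 tested genes with a coding transcript in the annotation. Over all tested genes that held the nonamer, the median log2 change after UVC was -0.37, against 0.02 in those without it. The part of these elements in the changes was not tested.

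TNFRSF1A encodes TNFR1, the receptor through which TNF reaches most cells. Its level was 56.4 and 51.2 in control, 29.3 and 30.9 after UVC, against 39.1 and 39.5 under active photolyase, so the 3 groups did not overlap. It was 1.78-fold lower after UVC (log2 -0.84 ± 0.056, adjusted p = 6.61e-09) and remained lower than control with active photolyase (-0.45 ± 0.056, adjusted p = 1.13e-05). Between the irradiated groups it was 1.3-fold higher with active photolyase (0.38 ± 0.056, adjusted p = 2.92e-05), a difference that library totals reduced to 0.08 (adjusted p = 0.216). TNF ligand and receptor transcripts thus moved in opposite directions after UVC.

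TNFRSF1B, the gene of TNFR2, was scarce. It read 0.812 and 0.871 in control, 0.508 and 0.499 after UVC, against 0.88 and 0.763 under active photolyase. Both UVC libraries were below the rest, and the other two groups overlapped. In a fit with no filter on low genes the change was -0.83 ± 0.14 after UVC (adjusted p = 7.49e-05), 0.75 ± 0.14 between active photolyase and UVC (adjusted p = 0.000244) and -0.08 ± 0.14 between active photolyase and control (adjusted p = 0.673). The first of these was -0.32 (adjusted p = 0.0565) with no filter and library totals, an alternative chosen after seeing the data. Within a library TNFRSF1B stood at 1.44% to 2.25% of the TNFRSF1A level.

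IL6R, the chain that binds interleukin 6, had the lowest log2 change of the 8 tested genes between UVC and control. It measured 2.3 and 2.59 in control, 0.61 and 0.617 after UVC, against 3.31 and 3.34 under active photolyase (826, 920, 245, 243, 1280 and 1245 reads). The UVC libraries were lowest, and both active photolyase libraries were above both controls. IL6R was 3.97-fold lower after UVC (log2 -1.99 ± 0.09, adjusted p = 9.59e-11) and 5.41-fold higher with active photolyase than after UVC alone (2.44 ± 0.088, adjusted p = 1.49e-11). Against control it was 1.36-fold higher (0.45 ± 0.076, adjusted p = 0.000177). With limma on log2(cRPKM + 1), which also leaves out the TMM factor, the differences were -0.87 after UVC and 1.28 between active photolyase and UVC. Adding 1 understates the change of a low gene. Library totals in the edgeR fit gave -1.57 after UVC. After UVC 5.06% of the tested genes had a lower log2 change than IL6R.

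IL6ST encodes gp130, the signalling chain shared by most cytokines of the interleukin 6 family. Its level was 25.3 and 25.9 in control, 14.6 in both UVC libraries, against 22.5 and 23 under active photolyase. The groups did not overlap, and active photolyase lay closer to control than to UVC. IL6ST was 1.75-fold lower after UVC (-0.81 ± 0.048, adjusted p = 1.71e-09) and 1.56-fold higher with active photolyase than after UVC alone (0.64 ± 0.048, adjusted p = 3.43e-08). The remaining difference from control was -0.17 ± 0.048 (adjusted p = 0.00673). That last call was lost without active photolyase replicate 1 (-0.15, adjusted p = 0.0567) and with library totals (-0.06, adjusted p = 0.292).

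LIFR, the LIF-binding chain, was also under the filter. It read 0.666 and 0.69 in control, 0.381 and 0.448 after UVC, against 0.859 and 0.826 under active photolyase, with no overlap between groups. In the fit with no filter it was -0.8 ± 0.1 after UVC (adjusted p = 3.03e-06), 1.07 ± 0.1 between active photolyase and UVC (adjusted p = 1.02e-07) and 0.27 ± 0.096 between active photolyase and control (adjusted p = 0.029). LIFR therefore had the same order of groups as IL6R: UVC lowest, control next, active photolyase highest.

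STAT3, the transcription factor downstream of gp130, differed little between groups. It measured 71.9 and 68.9 in control, 64.2 and 63 after UVC, against 52.3 and 53.2 under active photolyase. The log2 difference was -0.15 ± 0.05 after UVC (adjusted p = 0.0154), -0.27 ± 0.05 between active photolyase and UVC (adjusted p = 0.000235) and -0.42 ± 0.05 between active photolyase and control (adjusted p = 9.38e-06). The first of these rests on the processing and on single libraries. It was -0.11 without control replicate 1 (adjusted p = 0.0571), -0.13 without UVC replicate 2 (adjusted p = 0.0951) and -0.11 without active photolyase replicate 2 (adjusted p = 0.0867), and with library totals it was 0.27 (adjusted p = 0.000164), in the other direction.

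SOCS3, the feedback inhibitor that STAT3 induces, moved with the ligands TNF and IL6. It measured 24.3 and 23.8 in control, 62.1 and 56.6 after UVC, against 37.1 and 35.7 under active photolyase, with no overlap. SOCS3 rose 2.48-fold after UVC (1.31 ± 0.055, adjusted p = 4.75e-11). With active photolyase it was 1.63-fold lower than after UVC alone (-0.71 ± 0.054, adjusted p = 4.35e-08) and 1.52-fold above control (0.6 ± 0.055, adjusted p = 7.58e-07).

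**Figure D2:**
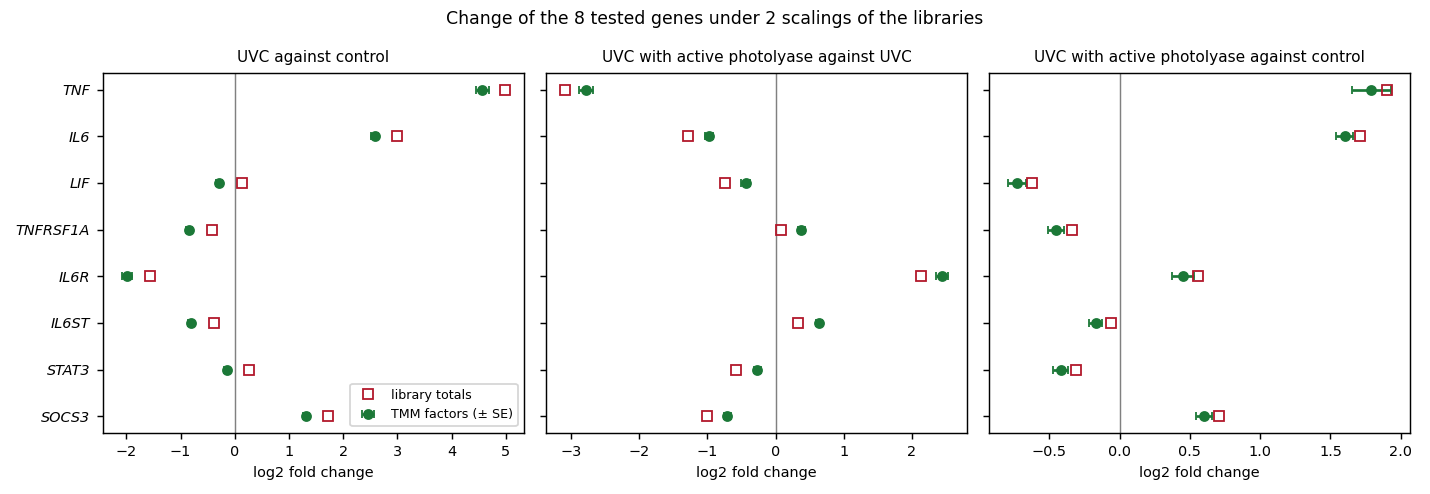
Log2 fold change of the 8 tested genes in the 3 comparisons (horizontal axis). Filled points with bars of 1 standard error are from the edgeR fit with TMM factors, and open squares are from library totals. With library totals LIF (0.13) and STAT3 (0.27) change direction after UVC, and TNFRSF1A stands at 0.08 between active photolyase and UVC. The values that follow are those with TMM factors. TNF stands at 4.56 and IL6 at 2.58 after UVC, and IL6R at -1.99. Between active photolyase and UVC, IL6R stands at 2.44 and TNF at -2.78.

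Counted together, 3 of the 8 tested genes were called higher and 5 lower after UVC, with a median log2 change of -0.22. Most genes of these cells were called too: 85.6% of the 11926 tested, 42.5% higher and 43.1% lower, with a median of 0.00. Between active photolyase and UVC, 3 were higher (TNFRSF1A, IL6R, IL6ST) and 5 lower, with a median of -0.36, where 79.1% of all tested genes were called, 39.2% higher and 39.9% lower, with a median of -0.04. Between active photolyase and control, 4 were higher (TNF, IL6, IL6R, SOCS3) and 4 lower, with a median of 0.14, where 65.8% were called, 33.0% higher and 32.9% lower, with a median of 0.01. TNF, counted as higher after UVC and against control, passed the filter only through the irradiated groups. Being called was thus usual in these libraries, and the size of a change says more than the call. The 3 comparisons share libraries, so their values for a gene are not independent of each other. The split of all genes moves with the scaling: library totals gave 7095 higher and 3542 lower after UVC (5074 and 5140 with TMM), 3318 and 6954 between active photolyase and UVC (4676 and 4755), and 5237 and 2840 between active photolyase and control (3933 and 3919). They shifted the median of all genes to 0.42, -0.34 and 0.12.

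The order of the levels, per length, also differed between groups. In control it ran LIF, STAT3, IL6, TNFRSF1A, IL6ST, SOCS3, IL6R, TNF, TNFRSF1B and LIFR. Neighbours whose libraries overlapped there were IL6 with TNFRSF1A and TNF with TNFRSF1B. After UVC, IL6 led, TNF had passed IL6ST, and LIFR stayed last with no overlap between neighbours. With active photolyase the order ran IL6, LIF, STAT3, TNFRSF1A, SOCS3, IL6ST, IL6R, TNF, LIFR and TNFRSF1B, and only the last pair overlapped.

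Ratios of a pair of genes inside one library do not depend on how libraries are scaled. IL6R stood at 9.09% and 10% of the IL6ST level in control, 4.19% and 4.24% after UVC, against 14.7% and 14.6% under active photolyase. The binding chain was therefore scarcer than gp130 in every library, and scarcest after UVC. The TNF level was 1.3% and 1.53% of the IL6 level in control, 6.02% and 5.26% after UVC, against 1.7% and 1.54% under active photolyase. LIF went from 178% and 150% of the IL6 level in control to 23.3% and 21.4% after UVC, against 34.1% and 30.9% under active photolyase. The SOCS3 level was 33.8% and 34.5% of the STAT3 level in control, 96.7% and 90% after UVC, against 70.9% and 67.1% under active photolyase. SOCS3 thus rose relative to STAT3 whatever the scale, although the direction of STAT3 itself does not hold. LIFR against IL6ST differed less, from 2.62% to 3.82% over the 6 libraries. The ratios are given as values, with no test; an exact permutation test of 2 libraries against 2 cannot reach 0.05.

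**Figure D3:**
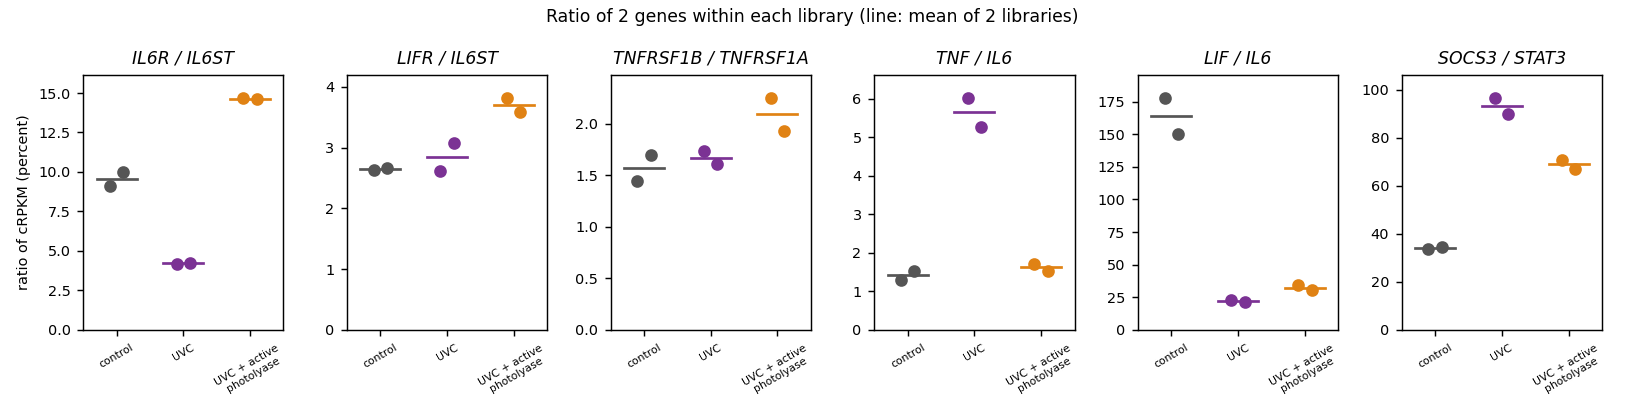
Ratio of the levels of 2 genes in each library, in percent (vertical axis, from 0), for 6 pairs. Points are libraries and lines are means of 2. IL6R against IL6ST falls to about 4.2% after UVC and stands at 14.6% with active photolyase, and TNF against IL6 is highest after UVC at a mean of 5.64%.

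The other genes tested were ranked by their root mean square difference from TNF over the 6 libraries. This was taken on log2(level + 1), centred on its mean, which understates the change of a low gene such as TNF. The closest were CXCL2 (0.364), ZNG1C (0.468), CCL20 (0.474), CXCL3 (0.475) and FOS (0.501). CXCL2, CXCL3 and CCL20 are chemokines and FOS is a subunit of AP-1. ZNG1C has near-identical copies, so its count is uncertain. CXCL2 had log2 changes of 3.48 after UVC, -1.74 between active photolyase and UVC and 1.73 between active photolyase and control. Those of TNF itself were 4.56, -2.78 and 1.79 in the same order. For IL6 the closest were DLX2 (0.0679), OTUD1 (0.0842), TMC8 (0.146), FOS (0.188) and IFNL1 (0.197), a type III interferon. For LIF they were RIN3 (0.0489), MED27 (0.0527), ATE1 (0.0634), MPP7 (0.068) and CDH8 (0.0715).

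TNF, SOCS3, IL6 and LIF are short genes, spanning 2.77, 3.3, 6.12 and 6.41 kb in GENCODE 29. TNFRSF1A spans 13.4 kb, and IL6ST, IL6R and STAT3 span 59.9, 64.3 and 75.2 kb. Over the 2455 tested genes under 10 kb the median log2 change after UVC was 0.38, against -0.18 in the 3843 genes of 30 to 100 kb and -0.23 in the 2041 genes over 100 kb. Within its own length class TNF exceeded 99.9% of genes, IL6 98.3% and SOCS3 90%, while LIF exceeded 21.6%. IL6R exceeded 6.74% of its class, IL6ST 29.8% and STAT3 51.6%, and TNFRSF1A exceeded 20.2% of the genes of 10 to 30 kb. Between active photolyase and UVC, TNF had the lowest change of its class, and the share of the class exceeded was 3.63% for IL6, 8.68% for SOCS3, 23.5% for LIF, 66.4% for TNFRSF1A, 97.6% for IL6R, 72.3% for IL6ST and 29.6% for STAT3.

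**Figure D4:**
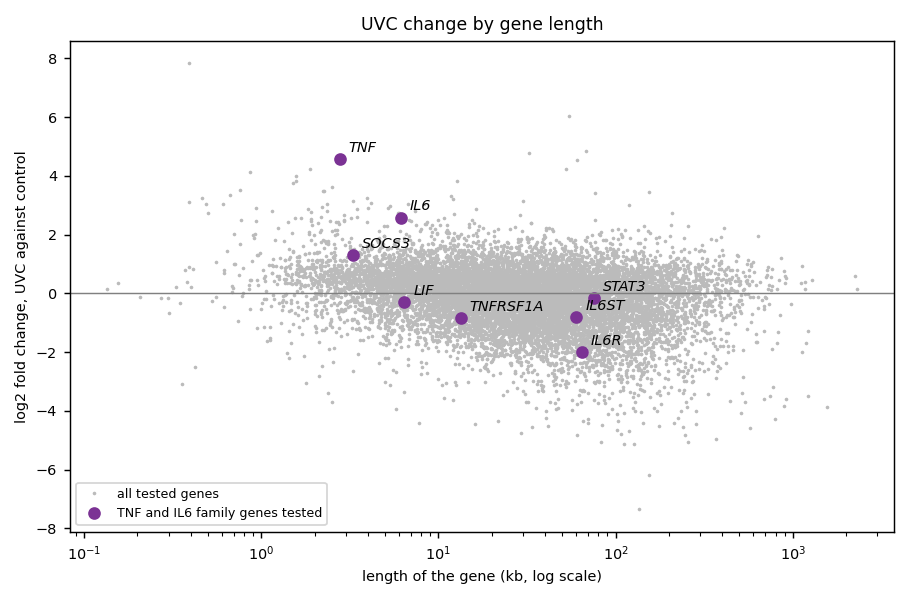
Gene span in kb (horizontal, log axis) against log2 fold change after UVC (vertical), with the genes of the TNF and interleukin 6 group named over all tested genes. The 3 genes that rose, TNF, SOCS3 and IL6, span under 10 kb, where the median of all genes is 0.38.

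Of 28 listed genes that shed TNF or build the TNF receptor complex, 26 were tested, and after UVC 9 were higher, 14 lower and 3 not called (median -0.22), where 42.5% of all tested genes were higher and 43.1% lower. CFLAR, which holds caspase-8 in check, went from 51.7 and 55 in control to 14.6 and 13.7 after UVC, against 48.6 and 45.4 under active photolyase (log2 -1.91 ± 0.058 after UVC, adjusted p = 1.63e-12). RIPK1, the kinase that joins TNFR1 to survival or death signals, fell by 1.66 on the log2 scale. Both rose with active photolyase against UVC, by 1.73 and 1.46. The adaptor TRADD (0.73) and the TAK1 partner TAB1 (1.27) rose after UVC, and TRADD was lower with active photolyase (-0.82), as was RHBDF2 (-0.50), a partner of ADAM17. In that comparison 14 were higher, 10 lower and 2 not called (median 0.13), against 39.2% and 39.9% of all genes. ADAM17, which releases TNF from the membrane, was still below control with active photolyase (-0.68), as was the kinase MAP3K7 (-0.79), while RBCK1 (0.37) and TAB1 (0.52) were above. There 6 were higher, 14 lower and 6 not called (median -0.17), against 33.0% and 32.9% of all genes. With library totals, 14 rather than 9 were higher after UVC, 9 rather than 14 were higher between the irradiated groups, and 8 rather than 14 were lower against control.

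Of 14 other ligands and receptors of the interleukin 6 family, 9 were tested, and after UVC 5 were higher, 2 lower and 2 not called (median 0.53). Over all tested genes 42.5% were higher and 43.1% lower. IL27, 1 of the 5, reached 1 cRPKM only in the UVC libraries (deposited 1.36 and 1.69). It read 0.06 and 0.1 in control, and 0.46 and 0.37 with active photolyase. Its rise was thus built into its being tested, and it also enters the median and the 2 comparisons below. CLCF1, a ligand of this family, went from 146 and 140 to 38.4 and 35.8 after UVC, against 65.8 and 64.3 under active photolyase (log2 -1.94 ± 0.054 after UVC, adjusted p = 7.19e-13). OSMR, the oncostatin M receptor chain that pairs with gp130, fell by 1.27 on the log2 scale. IL11RA (2.11) and IL27RA (1.35), also among the 5, rose from low levels. In control they read 0.54 and 0.6 (IL11RA) and 0.86 and 0.91 (IL27RA) in the deposited cRPKM. Both therefore passed the filter only through the irradiated libraries, where they were higher. In a fit with no filter their changes after UVC were 2.02 and 1.26. Against UVC alone, active photolyase had 4 higher, among them IL11 (1.04) and CLCF1 (0.81), and 5 lower, among them IL11RA (-0.97) and IL27RA (-1.05), with a median of -0.35, beside 39.2% and 39.9% of all genes. Against control 3 were higher, including IL11 (0.96) and IL11RA (1.15), 2 were lower, CLCF1 (-1.14) and OSMR (-0.80), and 4 were not called (median 0.2), beside 33.0% and 32.9% of all genes. With library totals 5 were higher against control. After UVC only 1 was higher with the filter of 5 cRPKM, and 4 were lower with no filter. The receptor chains of the family thus did not move as one after UVC: IL6R, OSMR and gp130 fell, while IL11RA and IL27RA rose.

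A list of 25 genes held JAK kinases, STAT factors and negative regulators, with the signalling genes PTPN11, GAB1 and GRB2 among them. Of these 25, 22 were tested, and after UVC 5 were higher, 12 lower and 5 not called (median -0.43). PTPN11 (-0.47), GAB1 (-1.57) and GRB2 (-0.42) were among the 12 lower. The shares over all tested genes were 42.5% and 43.1%. SOCS6, a relative of SOCS3, moved against it: 17.5 and 17.3 in control, 2.53 in both UVC libraries, against 18.7 and 18.8 under active photolyase (log2 -2.78 ± 0.053 after UVC, adjusted p = 2.52e-14). The phosphatase PTPN1 fell by 1.81, while the phosphatase PTPN6 (1.25) and the kinase TYK2 (0.98) rose. With active photolyase 13 were higher than after UVC alone, led by SOCS6 (2.89) and SOCS2 (1.38), and 7 lower, including PTPN6 (-0.97) and TYK2 (-0.55), with 2 not called (median 0.26), where all genes had 39.2% and 39.9%. Against control 5 were higher, including SOCS1 (0.81) and TYK2 (0.43), 8 lower, including PTPN1 (-0.81) and JAK1 (-0.73), and 9 not called (median -0.01), where all genes had 33.0% and 32.9%. With library totals 10 rather than 5 were higher after UVC and 9 rather than 5 against control.

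Of 20 known STAT3 targets, all 20 were tested, and after UVC 8 were higher, 11 lower and 1 not called (median -0.34). Of all tested genes 42.5% were higher and 43.1% lower, a split near that of the targets. MCL1, which protects cells from apoptosis, went from 362 and 381 in control to 79.8 and 82.8 after UVC, against 360 and 348 under active photolyase (log2 -2.19 ± 0.056 after UVC, adjusted p = 3.3e-13). Its relative BCL2L1 fell by 2.06. The transcription factor IRF1 (1.36) and the mucin MUC1 (0.82) rose, as SOCS3 did. Of the same targets, 9 were higher with active photolyase than after UVC alone, led by MCL1 (2.12) and MYC (1.54), 5 lower, including CEBPD (-0.55) and the adhesion molecule ICAM1 (-0.48), and 6 not called (median 0), with 39.2% and 39.9% for all genes. Against control 6 were higher, including IRF1 (1.21) and BCL6 (0.82), 10 lower, including SBNO2 (-0.78) and BCL2L1 (-0.60), and 4 not called (median -0.12), with 33.0% and 32.9% for all genes. With library totals 11 rather than 5 were lower between the irradiated groups and 6 rather than 10 against control.

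**Figure D5:**
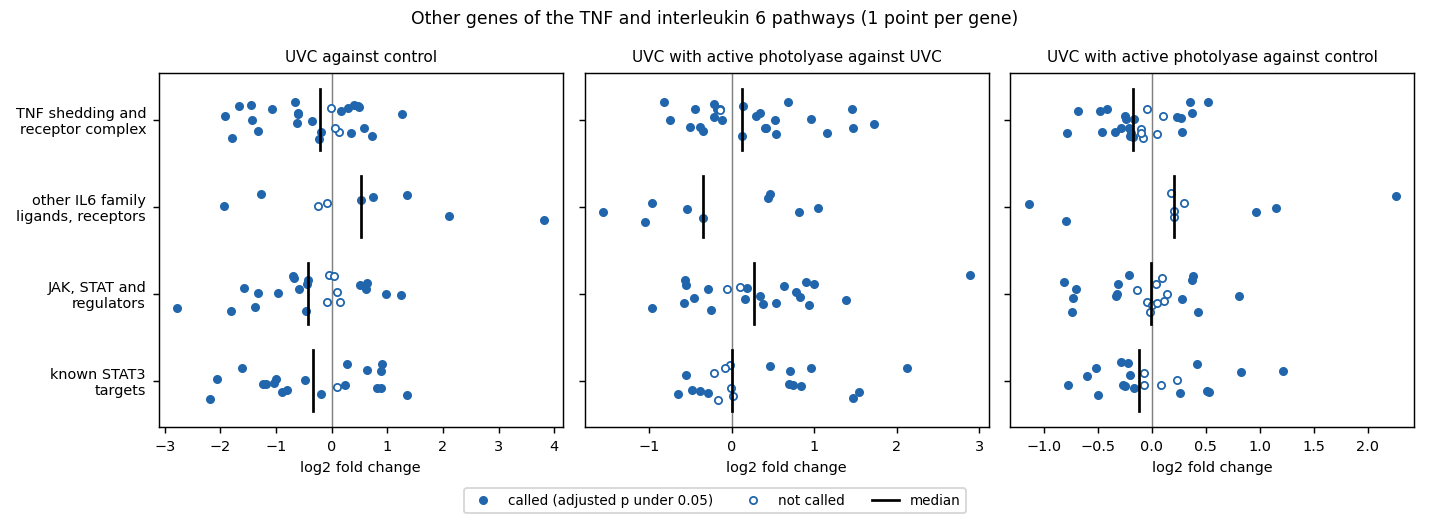
Log2 fold change of the tested genes of 4 pathway lists in the 3 comparisons, 1 point per gene, filled where called and open where not, with the list median as a bar. After UVC the medians are -0.22, 0.53, -0.43 and -0.34 from top to bottom, and each list holds genes that moved each way.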

How the data were processed

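Messenger RNA of HaCaT cells was sequenced from TruSeq libraries, per the labels' protocols, with hg19 and Bowtie named in the submitters' processing notes; how reads were counted, and whether by strand, is not given in the sources used here. The authors deposited, per gene and library, a read count and a cRPKM value (RPKM corrected for mappable positions, taken from the files' cRPKM naming). Every per-sample value column was used (0 left out). The deposited counts of genes at 1 cRPKM or more in at least 2 libraries (11926 genes) were fitted with edgeR 4.0.16 (quasi-likelihood, TMM, 6 libraries, 3 group means) in R 4.3.3. A gene was called at a Benjamini-Hochberg adjusted p under 0.05. With 3 residual degrees of freedom per gene, groups of 2 share 1 estimate of the spread. The scripts were tested on simulated counts with few genes changed, as many up as down. That test does not bear on the choice of scaling. Levels are the authors' RPKM-type values divided by the TMM factor.

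The 10 genes and the pathway lists were chosen with earlier results of these data known. From each pathway list the text names up to 2 genes of smallest p in each direction and comparison, and for TNF, IL6 and LIF the 5 genes most alike. Alternatives were library totals, DESeq2 1.42.0 and its size factors, no filter, a filter of 5 cRPKM, limma 3.58.1 on log2(cRPKM + 1) and log2(cRPKM + 0.1), only the libraries compared, a replicate block and leaving out each library. Sequences come from RefSeq (GRCh38.p14) and GENCODE 29 (GRCh38), a later build than that of the counts. 354 genes had no value. IKBKG and SOCS7 had none under the identifier matched. IL6, IL6R, IL6ST, LIF and LIFR overlap genes on the opposite strand, so antisense reads could be counted with them; of those partners, STEAP1B (beside IL6) read 0.06 cRPKM at most and the others were not analysed here.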

Additional observations from a re-analysis of the deposited data

How the results depend on the processing

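Of 363 values of the 10 genes under the alternatives, 344 kept their side of the threshold and, where called, their direction; TNFRSF1B between active photolyase and control, not called, went from -0.08 to 0.08 with no filter and library totals. LIF after UVC turned to 0.13 with library totals and 0.12 with limma at either pseudocount, and STAT3 to 0.27 in all 3. STAT3 after UVC was -0.03 with the filter of 5 cRPKM, -0.11 with only the 4 libraries compared, and -0.17 to -0.11 leaving out each library. Between active photolyase and UVC, TNFRSF1A was 0.08 with library totals and with limma at either pseudocount. Against control, IL6ST with active photolyase was -0.06 in those 3 settings and -0.19 to -0.15 leaving out each library. TNFRSF1B after UVC was -0.32 with no filter and library totals. Genes of the group called lower after UVC numbered 3 rather than 5 with library totals, the filter of 5 cRPKM and both limma fits, and those higher between active photolyase and UVC numbered 5 rather than 3 with no filter, where TNFRSF1B and LIFR enter. These settings differ in scaling or in the genes tested; beyond that the cause was not tested. IL6R had no value under the filter of 5 cRPKM.

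The labels do not say whether libraries of the same replicate number were paired. Their deviations from the group means correlated at 0.00453 (control and UVC), 0.0611 (control and active photolyase) and 0.176 (UVC and active photolyase). Weak correlations cannot settle whether they were handled together. A replicate block gave 5086 genes higher and 5152 lower after UVC, 4690 and 4790 between active photolyase and UVC, and 3981 and 3956 against control, and changed no call among the 8 tested genes. Read numbers were low for TNF in control (74 and 96), TNFRSF1B and LIFR in all libraries, and IL6R after UVC (245 and 243).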

Other observations

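The genes next to the members on the chromosome, by gene order in RefSeq, were looked at after the values had been seen. Of 20 neighbours 9 were tested, and after UVC 6 of these were higher and 3 lower, where 42.5% and 43.1% of all tested genes were. LTB, the lymphotoxin beta gene beside TNF, rose by 1.68 ± 0.232 on the log2 scale after UVC (edgeR adjusted p = 1.2e-05) and was lower with active photolyase than after UVC alone (-1.08 ± 0.21, adjusted p = 0.000343). LTB read only 0.4 to 1.82 cRPKM over all libraries and was highest after UVC. It may have passed the filter of 1 cRPKM only through that group, and it is 1 of the 6 higher. LTA, on the other side of TNF, was not tested, with 0.08 to 0.68 cRPKM. Both neighbours of TNFRSF1A, PLEKHG6 (1.3 ± 0.103, adjusted p = 3.61e-08) and the sodium channel subunit SCNN1A (1.02 ± 0.0503, adjusted p = 2.33e-10), rose after UVC while TNFRSF1A between them fell. TOMM7, a subunit of the mitochondrial import complex beside IL6, rose by 0.78 ± 0.0506 (adjusted p = 4.7e-09). OSM, the oncostatin M ligand gene beside LIF, stayed at 0.02 to 0.11 cRPKM. ATP8B2 beside IL6R had the same order of groups as IL6R, with -0.48 ± 0.0609 after UVC (adjusted p = 5.51e-06) and 0.91 ± 0.0603 with active photolyase against UVC (adjusted p = 9.11e-09).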
